A study of Mus musculus with 2 samples.

Results

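Brown adipocyte nuclei that carried transcripts of a set of interferon-inducible GTPase genes were described in brown adipose tissue of mice of 4 weeks. A nucleus was taken into this set, called Gbp-program nuclei here, when at least 3 of 8 GTPase genes (Gbp11, Gm4841, Iigp1, Gm4951, Gbp2, Gbp6, Gbp7 and Gbp3) had a UMI, that is, a counted RNA molecule. It also had to hold at most 10% mitochondrial UMIs and at least 0.3% of its UMIs in Ppara and Cidea, the genes that marked brown adipocytes. At most 1 of Flt1, Cyyr1, Col6a3, Dcn, F13a1, Mrc1, Ttn and Abcc9, which mark other cell types of the depot, could be detected, and fewer than 3 of Slc7a10, Trhde, Retn, Ofcc1, Adgrg2, Agt, Cyp2e1 and Gpt2, which mark white-type adipocytes. Of 29175 barcodes, 3744 met all 5 conditions, 1835 of 16145 in the Flox-labelled library and 1909 of 13030 in the KO-labelled library. The nuclei that met every condition except the one on GTPase genes, 5284 and 5656, are called other brown nuclei and served as the comparison.

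The study measured single-nucleus RNA with 10x Genomics droplets in 1 library from Flox mice, the control genotype, and 1 from Nfe2l1(f)-KO mice, labelled KO. Nfe2l1 encodes NRF1, a transcription factor of the CNC family. The Cre driver, the deleted part of Nfe2l1, the meaning of "(f)", and the sex and number of the mice behind each library were not given in the sources read here. Genotypes could not be tested against each other with 1 library each, so values of the libraries stand side by side, and every interval at 95% covers counting error only, not the spread between nuclei, mice or libraries. The 8 GTPase genes had been picked from a grouping of these same nuclei by their expression, so the contrast of Gbp-program with other brown nuclei is a description in which no gene is independent of the choice.

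Guanylate-binding proteins (the Gbp genes) and the immunity-related GTPases (Iigp1, Igtp, Irgm1 and Irgm2 among them) are large GTPases that assemble on the vacuoles of intracellular pathogens. Their genes are induced by interferon gamma, which acts through the receptor chains IFNGR1 and IFNGR2 and the kinases JAK1 and JAK2, and the response includes the factor IRF1 and genes with GAS elements. Type I interferon acts through IFNAR1 and IFNAR2 and on genes with the interferon-stimulated response element, ISRE. Brown adipocytes burn fatty acids in mitochondria that are uncoupled by UCP1, and interferon signalling in adipocytes has been linked in other work to lower thermogenic gene expression.

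The libraries held 46528077 and 43080725 UMIs, in the order labelled Flox, labelled KO, with medians of 2375 and 2755 UMIs per barcode. Nfe2l1 did not follow its label: Gbp-program nuclei held 151 CPM of Nfe2l1 (CPM, the gene's UMIs scaled to the same total in every group, 95% interval 142 to 160) in the Flox-labelled library and 299.6 CPM (289 to 311) in the KO-labelled library. In other brown nuclei Nfe2l1 stood at 126 and 319 CPM. The transcript count cannot check the genotype where the deleted part is not known, and directions below are those of the labels. In all, 65 barcode sequences occurred in both libraries, 4 and 8 of them in Gbp-program nuclei. Leaving them out moved none of 181 values of genes taken by the naming rule given below beyond the counting error. None of 70 list medians moved beyond a fixed bound on the log2 scale. Doublets were kept, as the rule has it: 18.6% and 10.7% of Gbp-program nuclei were among the highest doublet scores of their library, against 9.35% and 8.999% of other brown nuclei.

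The label brown adipocyte was checked against markers that the rule did not use. Pparg, the master factor of adipocyte differentiation, stood at 6609 CPM in the Flox-labelled library and 5781 CPM in the KO-labelled library, against 6803 and 5286 CPM in other brown nuclei and 4311 and 4184 CPM in endothelial barcodes. Adipoq, the adipocyte hormone adiponectin, was at 305 and 375 CPM in Gbp-program nuclei, 319 and 364 CPM in other brown nuclei and 92.1 and 95.6 CPM in endothelial barcodes. Prdm16, a determinant of brown fat identity, was at 703 and 673 CPM, and endothelial barcodes held 158 and 101 CPM. A list of brown adipocyte identity and thermogenesis genes, with Ppara and Cidea of the rule left out (29 genes), summed to 11613 and 14198 CPM, against 12080.1 and 13669 CPM in other brown nuclei and 2296 and 1778 CPM in endothelial barcodes. The list of adipocyte genes common to brown and white fat separated the cell types less, with 22107 and 26802 CPM against 18761 and 21480.1 CPM in endothelial barcodes. The markers named here were present in these nuclei, but Ucp1, which is on the list, was not above endothelial barcodes in the Flox-labelled library. With Ppara and Cidea kept, the list summed to 17105 and 20276 CPM in Gbp-program nuclei. It summed to 14706 and 13620 CPM in 49 and 31 white-like nuclei, which had 3 or more of the white-type genes. Those nuclei also passed the Ppara and Cidea bound, and the list separated them less than endothelial barcodes.

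Several of the genes that define the program lie side by side in the genome. On mouse build mm10, chromosome 3 carries Gbp5, Gbp7, Gbp3 and Gbp2 on the plus strand, from 142493978 to 142638008, in the GENCODE vM21 annotation. Chromosome 5 carries Gbp10, Gbp6 and Gbp11 on the minus strand from 105215699 to 105346472, and Igtp starts on chromosome 11 at 58199556. Windows of 120 bases directly before the RefSeq start of 4 of the genes (build GRCm38.p6) are printed because each holds the letters of the ISRE core (GAAA, any 2 bases, GAAA), the element through which interferon factors act. They are Gbp7 at chr3:142530216-142530335, Gbp3 at chr3:142559924-142560043, Igtp at chr11:58199436-58199555 and Irgm2 at chr11:58214857-58214976, all on the plus strand and 5′ to 3′. Capitals mark the ISRE core on either strand (TTTC, any 2 bases, TTTC where it reads on the minus strand) and the GAS core, TTCNNNGAA, which reads the same on both strands.
Gbp7: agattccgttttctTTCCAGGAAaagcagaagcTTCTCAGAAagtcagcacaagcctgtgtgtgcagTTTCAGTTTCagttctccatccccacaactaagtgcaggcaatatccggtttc
Gbp3: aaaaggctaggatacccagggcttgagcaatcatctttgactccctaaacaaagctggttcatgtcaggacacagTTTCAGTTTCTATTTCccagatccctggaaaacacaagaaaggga
Igtp: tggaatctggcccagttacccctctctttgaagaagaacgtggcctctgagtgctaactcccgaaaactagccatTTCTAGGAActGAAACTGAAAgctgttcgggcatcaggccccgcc
Irgm2: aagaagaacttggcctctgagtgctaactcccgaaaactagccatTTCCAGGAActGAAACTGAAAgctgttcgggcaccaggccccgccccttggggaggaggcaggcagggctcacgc
In Gbp7 the ISRE core ended 44 bases before the start, and 2 GAS cores lay farther upstream, the nearer one ending 79 bases before it. Gbp3 had 2 ISRE cores that overlap each other, from 45 to 30 bases before the start. Igtp and Irgm2 carried the same ISRE letters, GAAACTGAAA, with a GAS core just upstream of it, and the stretch around both motifs is nearly the same in both genes. The ISRE core also occurred before Gbp2 and Irgm1.

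The GTPase genes that chose the nuclei were all higher in Gbp-program than in other brown nuclei, with log2 ratios of 3.30 (Gbp3) to 4.90 (Gbp11) in the Flox-labelled library and 2.00 (Gbp7) to 3.21 (Gm4951) in the KO-labelled library. These values follow from the rule and are given as a description. Gbp11, a guanylate-binding protein, stood at 280.4 CPM (268 to 293) against 9.39 CPM in other brown nuclei of the Flox-labelled library, and at 107 CPM (101 to 114) against 15.2 CPM in the KO-labelled library. Gbp2 was at 263 against 12.97 CPM and at 103 against 12.6 CPM. Gbp6 was at 114 against 4.85 CPM and at 62.6 against 8.58 CPM. The log2 ratios of the KO-labelled over the Flox-labelled Gbp-program nuclei were -1.39 for Gbp11, -1.35 for Gbp2 and -0.86 for Gbp6 at full depth, and -0.61, -0.73 and -0.58 thinned to 1000 UMIs, where the rule was applied to nuclei of equal depth.

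Gbp7 was closer between the libraries, at 650.2 CPM in Gbp-program nuclei of the Flox-labelled library and 443 CPM in those of the KO-labelled library, with 64.1 and 110.4 CPM in other brown nuclei. Gbp3 was at 166 and 139 CPM, with 16.8 and 25.2 CPM in other brown nuclei. Both were lower in the Gbp-program nuclei and higher in the other brown nuclei of the KO-labelled library, at these full depths. Gbp6 shares 50.5% of the 31-base words in the last 500 transcript bases with other GTPase genes, Gbp11 33.8% and Gbp10 96.7%. Counts of these 3 are therefore uncertain, while Gbp5 and Gbp7 share none.

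Iigp1, an immunity-related GTPase that acts on parasite vacuoles, had a UMI in 96.8% and 90.5% of Gbp-program nuclei. Its level was 2121 CPM (2087 to 2155) in the Flox-labelled library and 1060.4 CPM (1040.1 to 1081) in the KO-labelled library, against 153 and 188 CPM in other brown nuclei. Gm4841 and Gm4951 are interferon-inducible GTPase genes of the same broad family. Gm4951 showed the widest gap of the 8 between libraries, with 297 CPM in Gbp-program nuclei labelled Flox and 63.6 CPM in those labelled KO, and 10.2 and 6.83 CPM in other brown nuclei. Gm4841 was at 434 and 345 CPM, with 27.8 and 45.5 CPM in other brown nuclei.

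**Figure D1:**
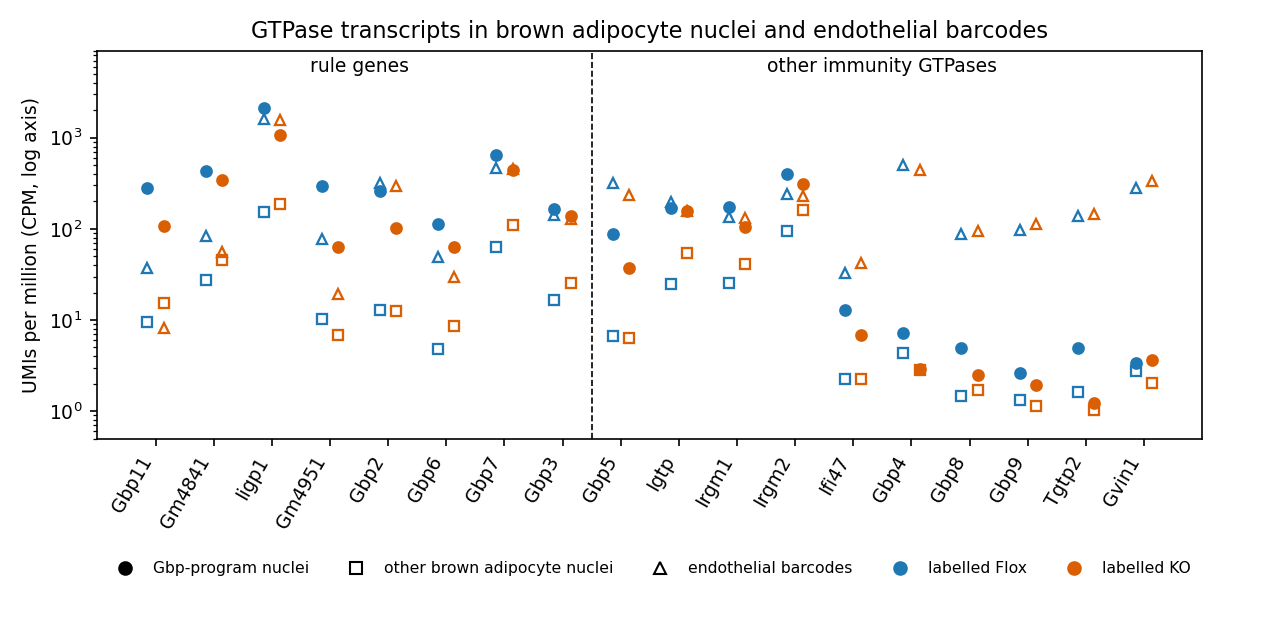
Levels of the 8 GTPase genes of the rule and 10 relatives, in CPM on a log axis, in Gbp-program nuclei (filled circles), other brown nuclei (open squares) and endothelial barcodes (open triangles), blue for the Flox-labelled library and orange for the KO-labelled library. Each point is 1 library and points at 0 are not drawn. Gbp4 stands near 500.7 CPM in endothelial barcodes and at 7.27 CPM in Gbp-program nuclei labelled Flox, whereas Gbp11, a gene of the rule, is higher in the Gbp-program nuclei.

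The GTPase set of Gbp-program nuclei was not that of the endothelial barcodes, which expressed many of the same genes. Iigp1 was at 1611 and 1564 CPM in endothelial barcodes and Gbp2 at 322 and 295 CPM, levels above those of the Gbp-program nuclei labelled KO. Gbp4 was at 500.7 and 448 CPM in endothelial barcodes but 7.27 and 2.88 CPM in Gbp-program nuclei. Gvin1, a giant interferon-inducible GTPase, was at 281 and 332 CPM in endothelial barcodes and 3.36 and 3.60 CPM in Gbp-program nuclei. Of the 31-base words in its last 500 transcript bases, Tgtp2 shares 77.3% with Tgtp1, so its counts are uncertain. Gbp8, Gbp9 and Tgtp2 were at 88.7 to 144 CPM in endothelial barcodes and at 4.89 CPM or less in Gbp-program nuclei. The reverse held for Gbp11 and Gm4951: Gbp11 was at 37.1 and 8.19 CPM in endothelial barcodes, and Gm4951 at 77.5 and 19.1 CPM, below the Gbp-program nuclei of the same library. Both are genes of the rule, by which the Gbp-program nuclei but not the endothelial barcodes were chosen, so this direction is a description. The ratio between GTPase genes thus differed within a library between these barcodes, of which only the Gbp-program nuclei were chosen by such genes.

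At full depth the share of Gbp-program nuclei among brown adipocyte nuclei was nearly the same in the libraries, but at equal depth it was not. Of brown adipocyte nuclei, 25.8% (24.8 to 26.8, Clopper-Pearson) and 25.2% (24.3 to 26.2) were in the set. The rule asks how many genes were detected, and Gbp-program nuclei were deeper, with medians of 3417 and 4645 UMIs against 2707 and 2829.5 in other brown nuclei. With each barcode thinned to 1000 UMIs and the rule applied to the thinned counts, the shares were 13.4% (12.6 to 14.1, 1056 of 7899 nuclei that met the other conditions on thinned counts) and 5.39% (4.88 to 5.93, 395 of 7330), with 92 and 430 brown adipocyte nuclei left out as shallower. Thinned to 2000 UMIs they were 22.7% and 15.4%, with 1829 and 1846 nuclei left out. By bands of full depth the order changed: the shares were 14.5% and 4.77% in nuclei of 500 to under 1500 UMIs, 21.6% and 15.4% from 1500, 30% and 30.5% from 3000, and 41.7% and 52.3% from 6000 UMIs. The shares of the libraries therefore depend on the depth at which nuclei are read.

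The level of the genes followed the order of the thinned shares for 5 of the 8. Summed over all brown adipocyte nuclei, Gbp11 was at 91.4 and 47.1 CPM, Iigp1 at 748 and 491 CPM, Gbp2 at 88.5 and 44.0 CPM, Gbp6 at 37.8 and 27.3 CPM, and Gm4951 at 97.0 and 26.5 CPM. Gm4841, at 151 and 149 CPM, Gbp7, at 241 and 226 CPM, and Gbp3, at 61.9 and 64.6 CPM, differed by no more than 0.10 log2 units. Nuclei with many of the 8 genes were rarer in the KO-labelled library: 7.501% of brown adipocyte nuclei labelled Flox and 2.86% of those labelled KO had 6 or more. Among Gbp-program nuclei, a median of 0.425% of the UMIs came from the 8 genes in the Flox-labelled library and 0.205% in the KO-labelled library. In 112 and 12 nuclei the 8 genes made up 1% or more of the UMIs.

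**Figure D2:**
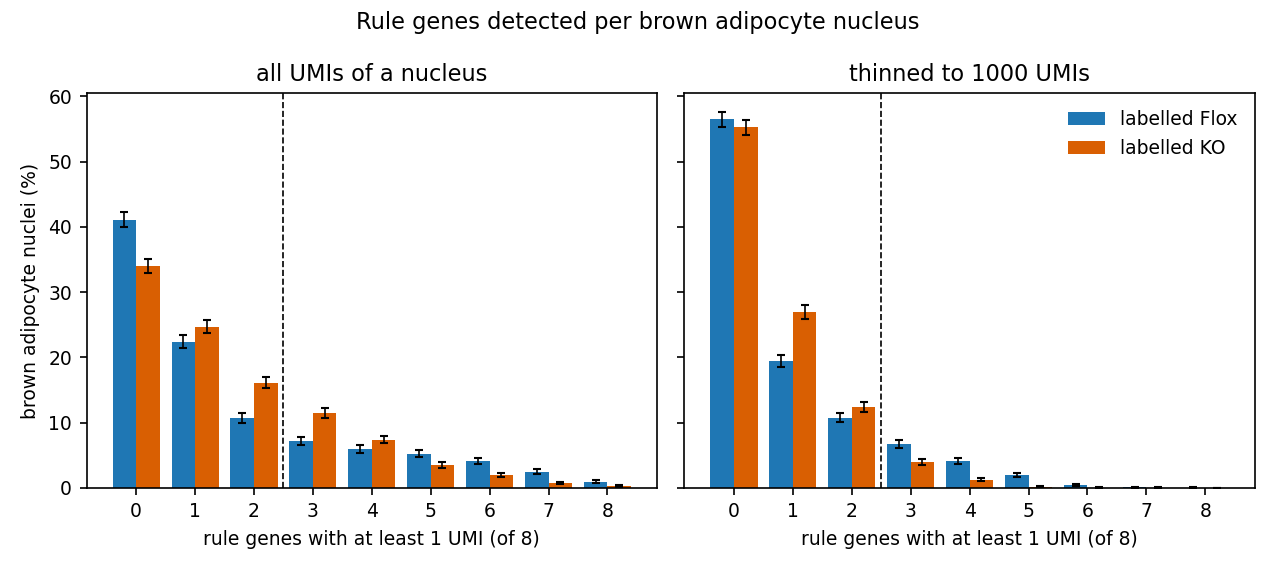
Percent of brown adipocyte nuclei (y axis) with 0 to 8 of the GTPase genes of the rule detected (x axis), at full depth and after thinning to 1000 UMIs, for the Flox-labelled library and the KO-labelled library, with 95% Clopper-Pearson bars. The dashed line is the bound of the rule at 3 genes. The tail of many detected genes is longer in the Flox-labelled library, with 7.501% of nuclei at 6 or more against 2.86%.

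Detection in other cell types set the scale for these shares. At least 3 of the 8 genes were detected in 31.7% and 33.7% of endothelial barcodes, in 15.2% and 15.4% of fibroblast barcodes and in 14.8% and 14.1% of macrophage barcodes. Median depths were 1518 and 1791 UMIs in endothelial, 1846 and 2159 in fibroblast, and 1784 and 2241 in macrophage barcodes, against 2890 and 3202 in brown adipocyte nuclei. After thinning to 1000 UMIs the shares were 19.2% and 16.2% in endothelial, 6.36% and 4.05% in fibroblast, and 6.91% and 2.91% in macrophage barcodes. The thinned 5.39% of brown adipocyte nuclei labelled KO therefore lay near the fibroblast value of that library, while the 13.4% labelled Flox lay above both. All of these cell types can express the genes, so none is a true blank, and the part of free RNA in the shares was not tested.

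The bounds of the rule cut through a range and not a gap. Nuclei with exactly 3 of the 8 genes, just inside, numbered 509 and 869, and those with exactly 2, just outside, 761 and 1217. Cd274, the gene of PD-L1, was at 217 and 189.6 CPM just inside and 133 and 128 CPM just outside. The bound on Ppara and Cidea left out 1200 and 351 barcodes that met every other condition. Those barcodes held 5218 and 2809.5 CPM of the 8 GTPase genes, 434 and 224.5 CPM of Cd274 and 275 and 299.6 CPM of Adipoq. A nucleus with low Ppara and Cidea and a high GTPase level was thus outside the set, more often in the Flox-labelled library. Of the conditions on other cells, Gbp-program nuclei with 1 such gene numbered 556 and 448, and 188 and 123 nuclei had 2 and were left out. On the white-type side, 17 and 18 Gbp-program nuclei had 2 of the white-type genes, and 7 and 3 nuclei had 3 and were left out.

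Detection of a GTPase gene was also set against that of the other 7, as a description, since the 8 were picked together from these nuclei. In nuclei with at least 3 of the 7 genes other than Iigp1, 95.7% and 84.5% had an Iigp1 UMI, against 18.2% and 19.6% of nuclei with none of the 7. For Gbp11 the shares were 46.0% and 27.95% against 2.79% and 3.45%, and for Gm4951 45.9% and 16.6% against 2.27% and 1.49%. Gbp7 was found in 81.3% and 75.7% against 11.4% and 19.4%. These shares are at full depth, and the nuclei with 3 or more other genes were deeper (for Iigp1, medians of 3540.5 and 5071.5 against 2630.0 and 2462 UMIs).

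Genes beyond the 8 moved with the program, and they were mostly known interferon targets. Of 11095 genes with at least 50 UMIs in each library, 41 were at least 2-fold higher in Gbp-program nuclei than in other brown nuclei in both libraries (0.37% of those compared), 8 of them the genes of the rule. At least 2-fold lower in both were 2 genes (0.018%). The library labelled Flox alone had 133 higher (1.2%) and 47 lower (0.424%), and the KO-labelled library alone 50 higher (0.451%) and 31 lower (0.279%). The median log2 ratio over all genes compared was 0.0016 and -0.03. Of the 41 genes, 25 had enough UMIs after thinning to 1000 per barcode, and all 25 stayed above 0 in both libraries there, 20 of them at 2-fold or more. Without the highest doublet scores 40 of the 41 were again at 2-fold or more. Beside the genes described below, the 41 held the GTPase genes Gbp10, Tgtp1 and Ifi47, the antiviral genes Oas1b, Oasl2, Ifit3, Rsad2, Cmpk2, Mx2, Zbp1, Trim5 and Trim12a, the nuclear body gene Sp110, and Phf11d. Brip1, a DNA repair helicase gene, Pate2, Gm12185 and Olfr56 completed them, and the annotated span of Olfr56 covers Ifi47 and overlaps Gm12185 and Tgtp1, so counts of these 4 are uncertain.

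**Figure D3:**
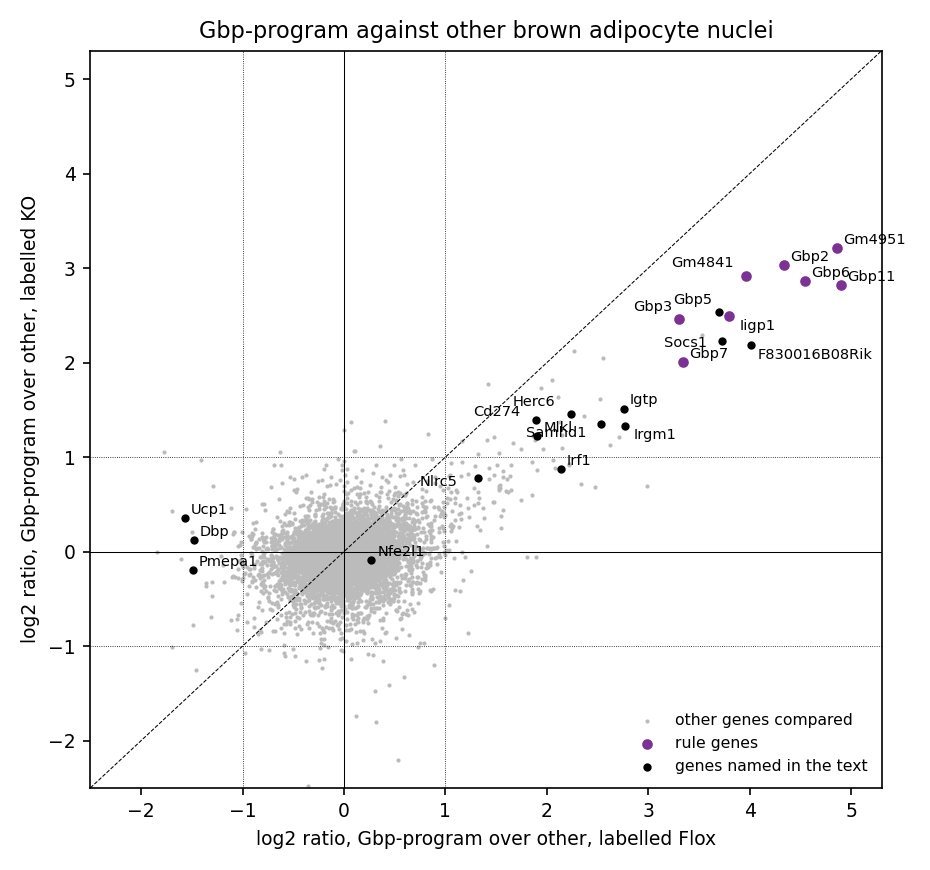
Log2 ratio of Gbp-program over other brown nuclei for each gene compared, in the Flox-labelled library (x axis) and the KO-labelled library (y axis). Purple points are the 8 genes of the rule, black points are named genes, the dashed line is equality and dotted lines mark 2-fold. The upper right corner holds interferon-inducible genes, most of them below the line of equality, and Ucp1 lies at -1.57 on the x axis and 0.35 on the y axis.

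Other GTPases had the largest median ratios among the lists beyond the rule. Of 12 compared genes of a list of the remaining guanylate-binding proteins and immunity-related GTPases, 10 were at least 2-fold higher in the Flox-labelled library, 8 in the KO-labelled library and the same 8 in both, with median log2 ratios of 2.57 and 1.24. Gbp5, which promotes inflammasome assembly, was at 87.8 CPM against 6.73 CPM in other brown nuclei labelled Flox, and at 36.8 against 6.34 CPM in those labelled KO. Igtp was at 170.3 against 25.2 CPM and at 155 against 54.5 CPM. Irgm1, a regulator of the other immunity-related GTPases, was at 173 against 25.2 CPM and at 104 against 41.3 CPM. Its relative Irgm2 was at 395 against 94.97 CPM and at 313 against 159.7 CPM. All 4 were thus higher in the Gbp-program nuclei of both libraries, with log2 ratios of 3.70 and 2.53 for Gbp5, 2.76 and 1.51 for Igtp, 2.77 and 1.33 for Irgm1 and 2.06 and 0.97 for Irgm2. F830016B08Rik, a relative of Gm4951, was at 122 against 7.52 CPM and 39.0 against 8.53 CPM.

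The interferon gamma pathway differed by step. The log2 ratios of its receptor and kinase genes (Ifngr1, Ifngr2, Jak1 and Jak2) lay between -0.40 and 0.42, while the downstream factor Irf1 was higher in Gbp-program nuclei. Ifngr1, the ligand-binding chain, was at 305 against 229 CPM in the Flox-labelled library and at 299.5 against 283 CPM in the KO-labelled library. Jak1 was at 108 against 110.3 CPM and at 102 against 106 CPM. Irf1 was at 171 CPM (162 to 181) against 38.9 CPM, and at 96.1 CPM (90.01 to 102) against 52.4 CPM. Socs1, the feedback inhibitor of the kinases, had 77 UMIs in the Gbp-program nuclei labelled Flox (10.8 CPM against 0.788) and 53 in those labelled KO (5.45 CPM against 1.15). Over 12 compared genes of the list, 3 were at least 2-fold higher in the Flox-labelled library (Irf1 and Socs1 among them) and 1, Socs1, in the KO-labelled library, with medians of 0.30 and 0.04. Ifng, the ligand itself, had no UMI in Gbp-program nuclei of either library, which allows up to 3 counts in each.

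Receptors of type I interferon stood close to their level in other brown nuclei. The log2 ratios of Ifnar1 were -0.11 and -0.14 and those of Ifnar2 -0.07 and -0.02. Stat2 was at 245 against 78.3 CPM and 214 against 136 CPM, and Irf9 at 59.4 against 35.5 CPM and 56.6 against 51.9 CPM. Irf7, which amplifies type I interferon production, was at 21.9 against 5.94 CPM and 15.0 against 6.62 CPM. Of 13 compared genes of the list of type I receptor and factor genes, 2 were at least 2-fold higher in both libraries, Irf7 and Usp18, the protease that removes ISG15 and dampens the receptor (28.4 against 6.36 CPM and 26.1 against 11.1 CPM).

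Antiviral effectors of the type I response were higher too, and of those named here all but Samhd1 stood at 61.1 CPM or less. Of 30 compared genes of that list, 15 were at least 2-fold higher in the Flox-labelled library, 9 in the KO-labelled library and 9 in both, with medians of 0.99 and 0.61, and 23 were above 0 in both. Herc6, the ligase that attaches ISG15 in mice, was at 60.8 against 12.9 CPM and 51.7 against 18.9 CPM. Samhd1, a nucleotide hydrolase that restricts viruses, was at 339 against 58.7 CPM and 178 against 70.0 CPM. Xaf1, a pro-apoptotic interferon target, was at 53.1 against 13.6 CPM and 41.7 against 19.7 CPM. Ifit1, which binds viral RNA, was at 9.37 against 1.58 CPM and 11.6 against 2.79 CPM. Ddx60, a helicase of the same response, was at 56.8 against 19.6 CPM and 61.1 against 29.6 CPM. At full depth Ifit1 and Ddx60 had levels in the Gbp-program nuclei labelled KO no lower than in those labelled Flox. The 8 GTPase genes of the rule and 11 of 12 other GTPase genes were lower there. Of 31 genes of the type I response list compared between the libraries, 12 were above 0 and 19 below 0.

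Antigen presentation by MHC class I was moderately higher. Of 23 compared genes, 8 were at least 2-fold higher in the Flox-labelled library and none in the KO-labelled library, with medians of 0.77 and 0.48, and 18 were above 0 in both. Nlrc5, the transactivator of class I genes, was at 369 against 147 CPM and 318 against 185 CPM. Tap1, which carries peptides into the endoplasmic reticulum, was at 208 against 68.5 CPM and 181 against 106 CPM. Psmb8 and Psmb9, subunits of the immunoproteasome, had log2 ratios of 1.57 and 0.86 and of 1.63 and 0.80. B2m, the class I light chain, was at 263 against 195 CPM and 263 against 204 CPM, and H2-K1, a heavy chain, at 365 against 307 CPM and 327 against 324 CPM. The peptide supply genes named here thus had larger ratios than the chains of the class I molecule named here. Class II genes were near the floor: Ciita was at 2.52 and 1.34 CPM, and Cd74 at 3.36 and 3.39 CPM in Gbp-program nuclei.

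Cd274, which encodes the checkpoint ligand PD-L1, was at 365 CPM (351 to 379) against 98.5 CPM in the Flox-labelled library and at 234 CPM (224 to 244) against 89.1 CPM in the KO-labelled library. The log2 ratios were 1.89 and 1.39. Endothelial barcodes held 455 and 379.6 CPM. Cd274 was the only one of 17 compared genes of the checkpoint, adhesion and chemokine list at 2-fold or more in both libraries. C4b, a complement component, was at 44.5 against 19.9 CPM and 34.6 against 19.9 CPM, and Cxcl10, a chemokine for T cells, at 15.2 against 8.36 CPM and 12.96 against 6.56 CPM. Of 20 compared genes of NF-kB and cell death signalling, 2 were at least 2-fold higher in both: Mlkl, the executor of necroptosis (78.4 against 20.9 CPM and 28.5 against 12.2 CPM), and Casp12 (18.7 against 5.58 CPM and 12.55 against 5.91 CPM).

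The 2 genes at least 2-fold lower in both libraries, named after their values were seen, were Atp8b4, a lipid flippase gene, and Capn11, a calpain gene. Atp8b4 was at 0.84 against 2.91 CPM and 1.23 against 2.57 CPM, and Capn11 at 3.22 against 9.03 CPM and 3.09 against 7.44 CPM. Both rest on few UMIs in the Gbp-program nuclei, 6 and 12 for Atp8b4 and 23 and 30 for Capn11.

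The ISRE core was counted in the promoters of the 41 genes and of all genes compared. Among RefSeq promoters of 300 bases, 30 of the 41 genes had an entry, and 16 of them held the ISRE core (53.3%). The share was 3.70% of 8855 compared genes with an entry and 3.99% of all 27025 genes with an entry. For the GAS core the shares were 23.3% (7 of 30 genes) and 8.33%. Among the genes of the rule Gbp2, Gbp3 and Gbp7 had an entry, and all 3 held the ISRE core. No ISRE core was in the Cd274 window. Both searches covered both strands, and matches of letters are a description.

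Within brown adipocyte nuclei Cd274 and Irf1 were higher where more GTPase genes were detected. Cd274 was at 90.8 CPM in nuclei labelled Flox with none of the 8, 133 CPM with 2, 306 CPM with 4 and 501 CPM with 6 to 8, and at 66.9, 128, 227 and 346 CPM in those labelled KO. Irf1 went from 30.2 to 210.2 CPM in the Flox-labelled library and from 42.8 to 128 CPM in the KO-labelled library over the same range. With no GTPase gene detected Irf1 was higher in the KO-labelled library (counting intervals 26.7 to 34.1 and 38.2 to 47.9 CPM). With 6 to 8 it was higher in the Flox-labelled library (193 to 229 and 110.5 to 148 CPM). These intervals hold no spread between mice or libraries, and the difference between libraries was not tested. Nuclei with more genes detected were also deeper, and depth differed between libraries. Medians were 2579 and 2391 UMIs with none and 4099 and 6420 UMIs with 6 to 8.

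**Figure D4:**
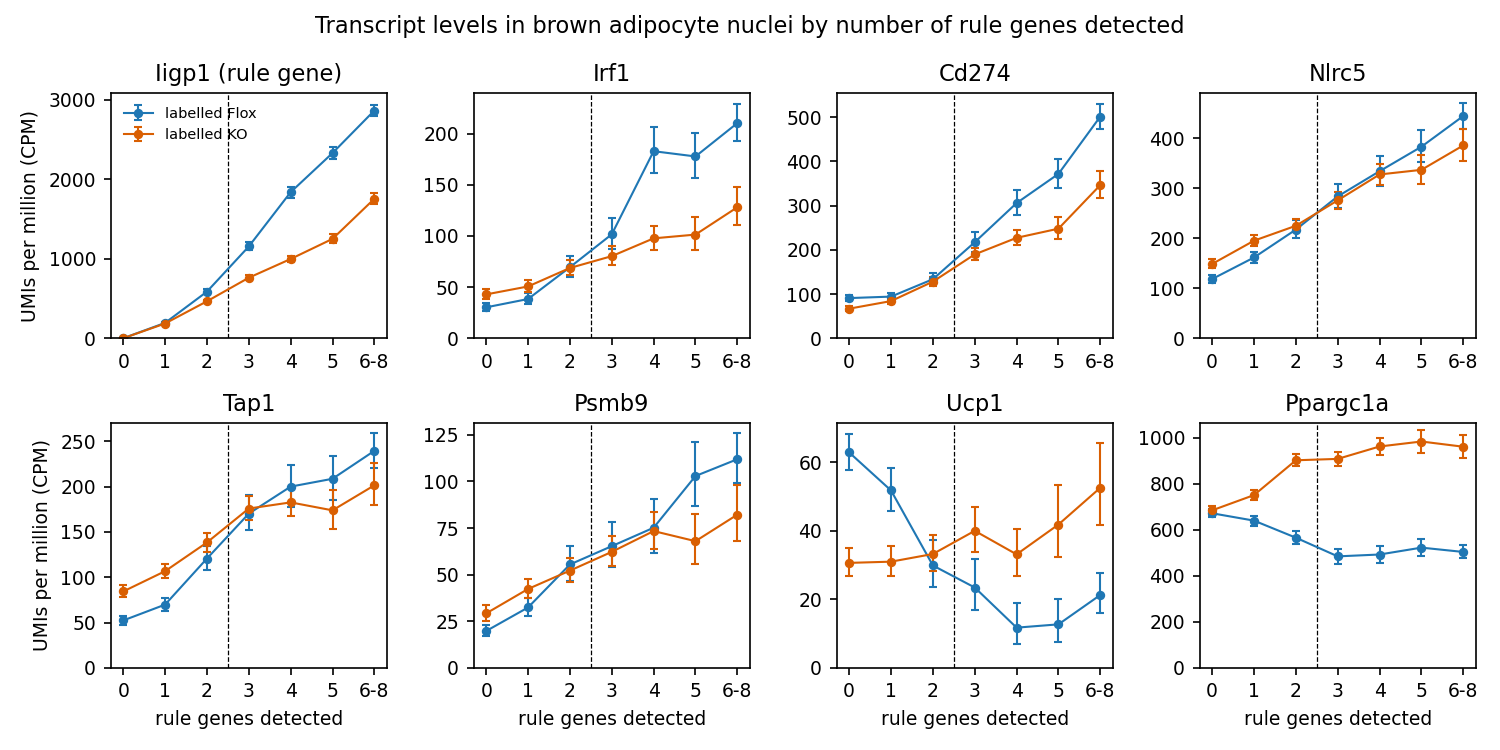
Levels in CPM (y axis) of 8 genes against the number of GTPase genes of the rule detected in a nucleus (x axis: 0, 1, 2, 3, 4, 5 and 6 to 8), summed over the brown adipocyte nuclei of each step, blue for the Flox-labelled library and orange for the KO-labelled library, with 95% Poisson bars. Cd274 is higher at 6 to 8 genes than at 0 in both libraries, and Ucp1 goes from 62.8 to 21.3 CPM in the Flox-labelled library and from 30.6 to 52.6 CPM in the KO-labelled library.

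Ucp1 stood below its level in other brown nuclei in the Flox-labelled library and above it in the KO-labelled library. Ucp1, the uncoupling protein, was at 18.2 CPM (15.2 to 21.6, 130 UMIs) in Gbp-program nuclei against 54.2 CPM in other brown nuclei of the Flox-labelled library. In the KO-labelled library it was at 40.1 CPM (36.2 to 44.3, 390 UMIs) against 31.4 CPM. The log2 ratios were -1.57 (-1.85 to -1.31) and 0.35 (0.16 to 0.54). Thinned to 1000 UMIs per barcode they were -1.69 and 0.37. Mitochondrial transcripts made up a median of 0.305% and 1.03% of the UMIs of Gbp-program nuclei and 0.448% and 1.07% of those of other brown nuclei. Endothelial barcodes held 23.8 and 15.0 CPM of Ucp1, so the level of the Gbp-program nuclei labelled Flox lay below that of a cell type that should lack it.

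Ppargc1a, the coactivator of mitochondrial biogenesis, was at 500.2 against 645 CPM in the Flox-labelled library and at 944 against 765 CPM in the KO-labelled library. Gk, glycerol kinase, was at 159 against 297 CPM and 250.8 against 221 CPM. Ucp3 was at 48.2 against 75.8 CPM and 127 against 112 CPM. Of 29 compared genes of the brown identity list, 2 were at least 2-fold lower in the Flox-labelled library, Ucp1 and the growth factor gene Fgf1 (5.59 against 11.5 CPM), and none in the KO-labelled library. The list medians were -0.22, with 20 genes below 0, and 0.07, with 16 above 0. Prdm16 stood apart, at 703 against 589.6 CPM and 673 against 715 CPM. Ppara and Cidea together, on the list and used by the rule, were lower in Gbp-program nuclei of both libraries. Their median share of UMIs was 0.497% against 0.678% in the Flox-labelled library and 0.573% against 0.655% in the KO-labelled library.

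Mitochondrial gene lists had the same split in sign at a small size. Of 31 nuclear-encoded respiratory chain gene IDs, 30 were below 0 in the Flox-labelled library (median -0.16) and 24 were above 0 in the KO-labelled library (median 0.07). Cox7a1, a subunit of complex IV, was at 23.5 against 33.8 CPM and 54.5 against 50.7 CPM. Of 20 fatty acid oxidation genes, 17 were below 0 in the Flox-labelled library (median -0.14) and 17 above 0 in the KO-labelled library (median 0.07). Slc25a20, the carnitine carrier, was at 252 against 335 CPM and 474 against 469 CPM. The signs of the respiratory chain and oxidation medians held after thinning to 1000 and 2000 UMIs, while the brown identity median of the KO-labelled library was -0.03 after thinning to 1000.

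Of the other genes at least 2-fold lower in Gbp-program nuclei of the Flox-labelled library, 3 are given as examples chosen after their values were seen. Dbp, a clock output factor, was at 23.9 against 67.0 CPM there and at 35.1 against 32.3 CPM in the KO-labelled library. Tfrc, the transferrin receptor, was at 165 against 351 CPM and 180.1 against 215 CPM. Perm1, a muscle and fat regulator of mitochondrial genes, was at 10.1 against 21.5 CPM and 14.6 against 12.7 CPM. Differences between the libraries in these ratios were not tested.

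Summed markers of other cell types lay within a factor of 1.5 between the populations in each list, except those of T and NK cells in the Flox-labelled library, which were lower in Gbp-program nuclei. Their part in the results was not tested. The 12 endothelial markers, all detected, summed to 278 and 243 CPM in Gbp-program nuclei and 259 and 246 CPM in other brown nuclei, against 17042 and 16630 CPM in endothelial barcodes. The 12 fibroblast markers, all detected, summed to 221 CPM in each library, against 266 and 258 CPM. The 14 macrophage markers, all detected, summed to 302 and 200.5 CPM, against 246 and 220.1 CPM, with Mertk at 269.7 and 179 CPM of those sums. Of 20 T and NK cell markers 16 were detected, at 12.4 and 18.8 CPM against 25.2 and 18.5 CPM, and Cd8a, Klrb1c, Ncr1 and Ifng were at 0. Of 12 B and dendritic cell markers 9 were detected, at 4277 and 4303 CPM, nearly all from Ebf1, which adipocytes express, and Pax5, Flt3 and Siglech were at 0. Skeletal muscle markers summed to 422 and 255 CPM against 347 and 231 CPM, pericyte markers to 80.2 and 65.7 CPM against 108 and 85.2 CPM, and Schwann markers to 111 and 102 CPM against 152 and 118 CPM.

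Between the libraries, Gbp-program nuclei labelled KO had less Gbp11, Gbp2, Gm4951, Iigp1 and Gbp5 and more Ucp1 and Pmepa1 than those labelled Flox, at full depth and thinned to 1000 and 2000 UMIs. Of 10685 genes with at least 50 UMIs over both, 84 were at least 2-fold higher (0.786%) and 269 lower (2.52%) in the KO-labelled library. Counting only genes whose level in the higher library was not below that of barcodes under the Ppara and Cidea bound, 45 were higher (0.421%) and 113 lower (1.06%). In other brown nuclei 73 of 11772 genes were higher (0.62%) and 232 lower (1.97%). The median over all genes was -0.08 in Gbp-program nuclei and -0.03 in other brown nuclei. With scaling by TMM the median of the Gbp-program nuclei shifted by 0.108 on the log2 scale, and 136 genes were higher and 192 lower, so the higher share of the calls went from 23.8% to 41.5%. Each library stands for 1 genotype, so genotype, mouse and library cannot be told apart.

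Most GTPase genes beyond the rule were lower at full depth in Gbp-program nuclei labelled KO, while their median in other brown nuclei was above 0. Of 12 compared, 11 were below 0 and 6 at least 2-fold lower, with a median of -1.04, against 0.18 in other brown nuclei. Gbp5 had a log2 ratio of -1.25 in Gbp-program nuclei and -0.09 in other brown nuclei. Irgm1 had -0.73 and 0.71, and Igtp -0.13 and 1.11. Thinned to 1000 and 2000 UMIs the median was -0.48 and -0.72. Gbp-program nuclei labelled KO were the deeper ones, with a median of 4645 against 3417 UMIs. In thinned counts Gbp7 had -0.05 and -0.30, Gbp3 0.02 and 0.18 and Gm4841 0.16 and 0.01, against -0.55, -0.26 and -0.33 at full depth, so Gbp3 and Gm4841 changed sign and Gbp7 came closer to 0, whereas Gbp11 had -0.61 and -1.01 and Gm4951 -1.50 and -1.93.

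Interferon factors and effectors differed between the libraries by varying amounts. Irf1 had a log2 ratio of -0.83 in Gbp-program nuclei and 0.43 in other brown nuclei. Cd274 had -0.64 and -0.14, and Mlkl -1.46 and -0.78. Samhd1 had -0.93 and 0.26. The type I response list had a median of -0.10 over the Gbp-program nuclei, which was 0.01 with TMM scaling and 0.08 after thinning to 2000 UMIs, and 0.35 in other brown nuclei. The MHC class I list had -0.16 and 0.24.

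**Figure D5:**
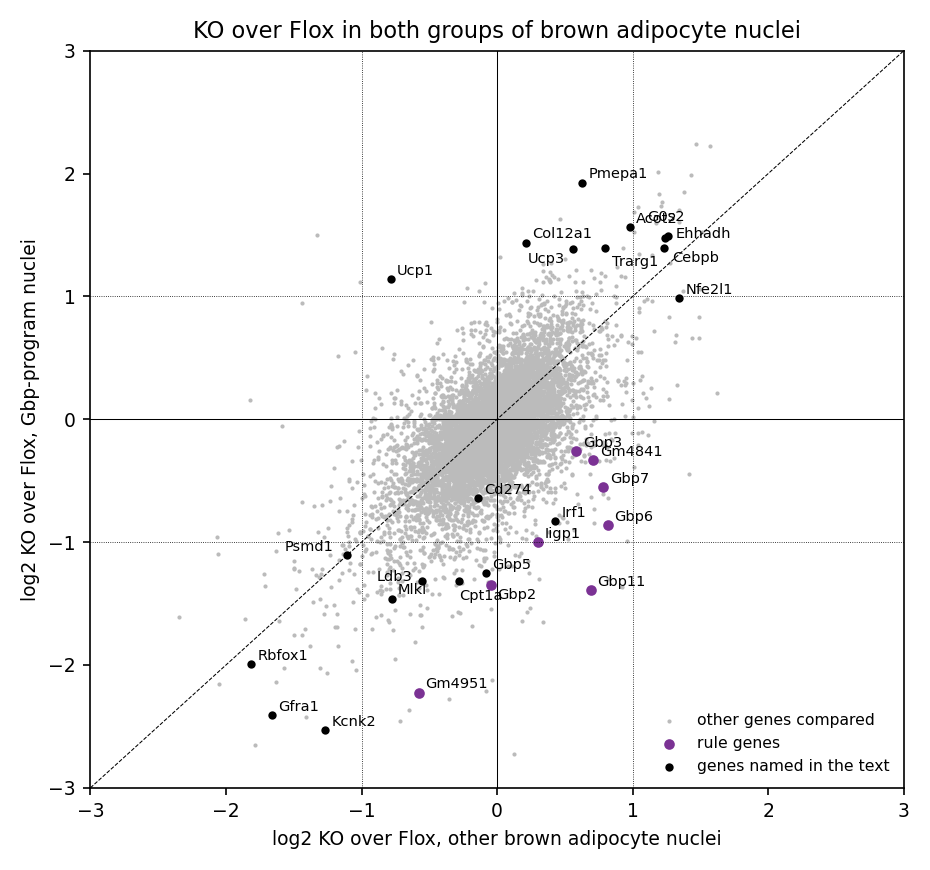
Log2 ratio of the KO-labelled library over the Flox-labelled library for each gene compared, in other brown nuclei (x axis) and Gbp-program nuclei (y axis), with 2 genes beyond the axes, Kng1 among them. Purple points are the genes of the rule and black points named genes, the dashed line is equality and dotted lines mark 2-fold. Gbp5 lies at -1.25 on the y axis and -0.09 on the x axis, and Rbfox1 is low on both.

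Most brown identity, respiratory chain and fatty acid oxidation genes had ratios above 0 in Gbp-program nuclei labelled KO over those labelled Flox, few of them at 2-fold. Ucp1 had a log2 ratio of 1.14 there and -0.78 in other brown nuclei, Ucp3 1.39 and 0.56, and Ppargc1a 0.92 and 0.25. Over 27 brown identity genes compared, 20 were above 0 and 5 at least 2-fold higher, namely Ucp1, Fgf1, Acot2 and the complex IV subunit genes Cox7a1 and Cox8b (median 0.35), against a median of 0.03 and none at 2-fold in other brown nuclei. The other 7 were below 0, among them Zic1, a brown fat lineage gene, at 26.8 CPM labelled Flox and 15.0 CPM labelled KO. Respiratory chain genes had a median of 0.35 with 29 of 31 entries above 0 (30 symbols, Atp5o being listed under 2 identifiers) and none at 2-fold, and 0.14 in other brown nuclei. The median over genes of fatty acid oxidation was 0.43, with 19 of 20 above 0, 1 of them at 2-fold higher and 1 gene, Cpt1a, at 2-fold lower, and 0.19 in other brown nuclei. G0s2, an inhibitor of the lipase ATGL, was at 222 CPM labelled Flox and 624 CPM labelled KO. Ehhadh, a peroxisomal oxidation enzyme, was at 79.0 and 220.3 CPM, and Acot2, a mitochondrial thioesterase, at 17.6 and 52.4 CPM. Cebpb, an early adipogenic factor, was at 57.3 and 151 CPM. G0s2, Ehhadh and Cebpb had ratios of a like size in other brown nuclei, at 1.26, 1.24 and 1.23.

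Pmepa1, a negative regulator of TGF-beta signalling, was at 87.5 CPM in Gbp-program nuclei labelled Flox and 333 CPM in those labelled KO, and at 246 and 381 CPM in other brown nuclei. Kng1, which encodes kininogen, had 1 UMI in Gbp-program nuclei labelled Flox and 735 in those labelled KO, a log2 ratio of 8.495 (6.60 to 14.4), and 1 against 1590 UMIs in other brown nuclei. The other genes that the naming rule took, Col12a1, Trarg1, Lrg1, Ccn1 and St3gal5, had log2 ratios of 1.24 to 1.44. Pmepa1 and Col12a1 were higher in the KO-labelled library by much more in Gbp-program nuclei than in other brown nuclei (1.93 against 0.63 and 1.44 against 0.21), and these differences were not tested.

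Lower in Gbp-program nuclei labelled KO were Rbfox1, a splicing factor, at 324 CPM labelled Flox and 81.6 CPM labelled KO, and Kcnk2, a potassium channel, at 31.2 and 5.35 CPM. Gfra1, a GDNF co-receptor, had a log2 ratio of -2.41, Tmem82 -2.04 and Grip1 -1.85, and all 3 were also lower in other brown nuclei, at -1.66, -1.04 and -1.38. Cpt1a, which brings fatty acids into mitochondria, was at 31.6 and 12.7 CPM, against 15.8 and 13.01 CPM in other brown nuclei. Ldb3, a muscle Z-disc gene, was at 159 and 63.8 CPM. Muscle markers stood beside it, with a list median of -1.49 in Gbp-program nuclei, 8 of 11 at least 2-fold lower, and -1.12 in other brown nuclei, and their part in these values was not tested.

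The targets of the factor named in the genotype were also read in these nuclei. Of 42 compared proteasome subunit genes, 34 were below 0 in the KO-labelled library (median -0.36), against 35 of 43 in other brown nuclei (median -0.21). Psmd1, a scaffold subunit of the regulatory particle, was at 151 and 69.8 CPM, and Psma5, a subunit of the alpha ring, at 57.3 and 29.9 CPM. Mafg, a small MAF partner of CNC factors, was at 167 and 86.5 CPM. The log2 ratios in Gbp-program and in other brown nuclei were -1.11 and -1.10 for Psmd1, -0.94 and -0.84 for Psma5, and -0.95 and -0.64 for Mafg. Against other brown nuclei of the same library the proteasome list had medians of 0.07 and 0.03.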

How the data were processed

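The authors deposited UMI counts of 22620 genes by barcode. Cell Ranger 5.0.0 had made them, per the file headers, on mm10 per the submitters' processing notes. No source read here gives the annotation or the handling of intron reads. Positions came from GENCODE vM21 (mm10) by gene ID (22565 matched).

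The nuclei were found by the rule given above, and its members and the 25 gene lists were chosen with earlier results of these data known. White-type adipocyte genes of the rule summed to 37.9 and 40.4 CPM in Gbp-program nuclei and 50.8 and 49.8 CPM in other brown nuclei. The other compared lists, in the order labelled Flox, labelled KO, had median log2 ratios of Gbp-program over other brown nuclei of -0.68 and -0.23 (MHC class II, 4 genes compared), 0.27 and -0.04 (NFE2L1, CNC, BACH and small MAF factors), -0.16 and -0.04 (adipocyte genes common to brown and white fat), -0.03 and -0.04 (ER stress and heat shock) and 0.19 and 0.12 (NF-kB and cell death).

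UMIs were summed per population and library and divided by the population's total (CPM). A pseudocount of 0.5 UMI entered the log2 ratios, a gene needed 50 UMIs or more over the populations compared (in each library, where both had to pass), and genes were counted at 2-fold. Intervals at 95% were exact Poisson for CPM, exact binomial for ratios and Clopper-Pearson for shares, and cover counting error only. Genes named were the 8 of the rule, Cd274, Nfe2l1 and Ucp1, the 12 furthest apart each way in each comparison among genes with at least 100 UMIs and 20 CPM, at most 20% of UMIs from 1 nucleus and at least 1.5-fold apart, and up to 2 per list each way. Mitochondrial, ribosomal protein, haemoglobin, sex-linked and unnamed clone genes stayed out of that rule. Other genes of the pathways are named as members of the lists, and their choice followed their values.

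Endothelial, fibroblast and macrophage barcodes had less than 0.3% Ppara and Cidea UMIs and both genes of 1 marker pair alone (Flt1 and Cyyr1, Col6a3 and Dcn, F13a1 and Mrc1). Doublet scores came from Scrublet in scanpy 1.11.5, with an expected rate of 0.8% per 1000 barcodes, and were used in an alternative only. Other alternatives changed the bounds of the rule, thinned barcodes to 1000 or 2000 UMIs, and changed scaling (TMM, edgeR 4.0.16), minimum UMIs and pseudocount. Counts were simulated for the library comparison within Gbp-program nuclei (10685 genes), as Poisson draws from rates shared by both libraries. They held no spread between nuclei or mice, and only genes with at least 100 UMIs were changed. All 100 genes raised 4-fold and all 100 lowered 4-fold passed the fold, as did 4 (higher) and 1 (lower) of 10485 genes left unchanged. Of the intervals, 95.7% held the true ratio. These values check the arithmetic and give no error rate for the real counts. Computation used SciPy 1.17.1, pandas 2.3.3 and NumPy 2.4.6 under Python 3.11.15, with figures by matplotlib 3.10.9.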

Additional observations from a re-analysis of the deposited data

Results flagged for a closer look

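The ratio of Gbp-program to other brown nuclei had opposite signs in the libraries for 12 of the genes named in the text, each with an interval for counting error that leaves out 0 in both. Among all 11095 genes compared, 403 (3.63%) had such signs. The difference between the libraries was not tested, since there is 1 library per genotype. In log2 units, with the library labelled Flox first, Ucp1 had -1.57 and 0.35, Ucp3, its muscle and brown fat relative, -0.65 and 0.18, Ppargc1a -0.37 and 0.30, and glycerol kinase, Gk, -0.90 and 0.18. The brown fat factor Prdm16 went the other way, at 0.25 and -0.087. Small gaps were seen for the adipogenic factors Pparg, at -0.042 and 0.13, and Ebf1, at -0.078 and 0.080. The collagen gene Col12a1 had -0.78 and 0.445, and the ganglioside synthase gene St3gal5 -0.18 and 0.18. Kcnk2, a potassium channel gene, had 0.41 and -0.85, Mertk 0.41 and -0.096, and Nfe2l1 0.27 and -0.089. Thinned to 1000 UMIs per barcode, Ucp1 had -1.69 and 0.37, while Ucp3 had -0.73 and -0.07 and Col12a1 -1.21 and 0.11, so the sign of Ucp3 in the library labelled KO was not kept.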

How the results depend on the processing

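No paired analysis was possible because each genotype had 1 library. The share of Gbp-program nuclei, 25.8% labelled Flox and 25.2% labelled KO, was 36.5% and 41.3% with at least 2 GTPase genes, 18.6% and 13.7% with at least 4, and 19.6% and 22.96% with Ppara and Cidea at 0.5% or more. Without the highest doublet scores it was 23.8% labelled Flox. With each barcode thinned to 1000 UMIs it was 13.4% and 5.39%, to 2000 UMIs 22.7% and 15.4%, and with only the GTPase genes thinned 13.02% and 5.58% at 1000 and 21.9% and 15.8% at 2000. The thinning to 2000 UMIs, the thinning of the GTPase genes alone and the removal of shared barcodes were chosen after seeing the data.

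The count of genes higher in both libraries, 41, was 34 to 48 under every alternative run, but the genes were not all the same. Thinned to 1000 UMIs, 20 of the 39 genes counted were among the 41, and thinned to 2000, 28 of 37. The 2 lower genes were 1 with at least 2 GTPase genes, 1 with TMM, 1 with 1 UMI added, 7 with mean CPM over nuclei, 7 thinned to 2000, 11 with at least 4 GTPase genes, 14 with at least 20 UMIs and 21 thinned to 1000. Between libraries, the 84 higher genes were 136 with TMM and 132 with at least 20 UMIs, and the 269 lower genes were 115 thinned to 1000, 174 thinned to 2000 and 510 with at least 20 UMIs. Of 2534 values of genes taken by the naming rule, 316 moved beyond counting error under alternatives. List medians have no interval, and 111 of 946 moved by more than a fixed bound on the log2 scale. No 2-fold value changed sign. Thinning to 1000 UMIs moved 113 of 181 named gene values. The cause of these changes was not tested.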
